A study of Mus musculus with 14 samples.

Results

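Drd2, Cnr1 and Plxdc1 encode membrane receptors of striatal projection neurons, and their RNA levels were compared between R6/2 and wild-type mice. All probe sets that the platform annotation assigns to these symbols were taken, which gave 1 probe set for each gene and 3 of the 22626 probe sets tested. No probe set with several symbols named any of them. The samples were 14 mouse arrays of total RNA from mice of 6 weeks on a CBA by C57BL/6 background. Their titles hold the letters str or STR, which were read as striatum. R6/2 mice, 7 arrays, carry a transgene with the first exon of the human huntingtin gene and an expanded CAG repeat, driven by the human huntingtin promoter, and keep their own mouse huntingtin gene. The other 7 arrays were of wild-type mice. Every mouse of both genotypes had received normal saline 30 to 60 min before death, as these were the control arms of drug studies, so no array is of an uninjected mouse. Titles start with M.C on 4 R6/2 and 4 wild-type arrays and with Mith on 3 R6/2 and 3 wild-type arrays. This prefix was used as the cohort. Replicates were numbered here within each genotype, so that 1 to 4 are M.C and 5 to 7 are Mith. A number shared by the genotypes does not mark a pair. Whether every array had its own mouse is not stated. The p-values set differences against the spread between these samples, which may be partly technical and may not be that between mice.

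The dopamine D2 receptor, encoded by Drd2, is a G protein-coupled receptor that lowers cyclic AMP when dopamine binds. In the striatum it marks the projection neurons of the indirect pathway, which carry Penk, the enkephalin precursor, and it is also present on cholinergic interneurons and dopamine terminals. The cannabinoid CB1 receptor, encoded by Cnr1, also couples to inhibitory G proteins. Projection neurons of both pathways make it, and it sits largely on their axon terminals, where lipid messengers released by the postsynaptic cell reduce transmitter release. Plxdc1, also called tumour endothelial marker 7, is a single-pass membrane protein first known from tumour vessels and later described as a receptor for the secreted factor encoded by Serpinf1. In the striatum it serves as a marker of indirect-pathway neurons.

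RefSeq promoter windows of build GRCm38.p6, from 250 bases before to 50 after an annotated transcript start, were found for Drd2 and Cnr1. They are shown because the levels of both genes are the subject, and the capitals mark GGGCGG or its reverse complement CCGCCC, the core of the GC box. Both windows lie on the plus strand. The Drd2 window is chr9:49340153-49340452, and the Cnr1 window shown, the most upstream of 3 annotated starts, is chr4:33924014-33924313.
Drd2: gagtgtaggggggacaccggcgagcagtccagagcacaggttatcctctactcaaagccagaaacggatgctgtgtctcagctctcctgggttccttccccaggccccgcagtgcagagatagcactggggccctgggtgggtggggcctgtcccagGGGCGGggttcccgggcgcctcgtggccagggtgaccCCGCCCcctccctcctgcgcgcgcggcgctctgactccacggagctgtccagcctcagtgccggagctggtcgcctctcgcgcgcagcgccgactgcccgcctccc
Cnr1: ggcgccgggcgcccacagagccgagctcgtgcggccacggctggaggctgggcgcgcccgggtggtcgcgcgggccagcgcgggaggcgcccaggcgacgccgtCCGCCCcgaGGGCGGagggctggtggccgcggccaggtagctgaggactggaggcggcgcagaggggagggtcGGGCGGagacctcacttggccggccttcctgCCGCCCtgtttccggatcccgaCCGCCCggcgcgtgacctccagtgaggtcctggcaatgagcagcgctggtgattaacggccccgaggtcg
The Drd2 window has 70.3% G or C, more than 90.9% of the 32851 mouse promoter windows in the table. It holds the motif 2 times, on either strand, starting 93 and 56 bases before the transcript start. The Cnr1 window has 76.3% G or C, more than 97.1% of windows, and holds the motif 5 times, starting 146, 137, 73, 42 and 20 bases before the start. At least 2 copies occur in 19.49% of all windows and at least 5 in 2.71%. The other Cnr1 windows, chr4:33924394-33924693 and chr4:33926130-33926429, hold none. The cyclic AMP response element TGACGTCA, its core TGACG, which the full element contains, and the Egr1 motif GCGTGGGCG were searched on both strands and are in none of the 4 windows. They occur in 1.79%, 20.81% and 0.61% of all windows. These matches describe letters and say nothing about binding.

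Signals are log2 values after the arrays were set to a common median. A probe set was called where limma's Benjamini-Hochberg adjusted p, over all 22626 probe sets, was under 0.05. Array medians before centring lay between 7.067 and 7.175. Within its cohort each array had a mean rank correlation with the others of 0.9808 to 0.9917, with R6/2 replicate 4 the lowest. For the striatal label, 16 genes shared by projection neurons of both pathways were measured. In M.C their mean log2 signal lay between 8.915 and 9.316 on R6/2 arrays and between 9.878 and 10.014 on wild-type arrays. In Mith it lay between 9.105 and 9.376 on R6/2 arrays and between 9.251 and 9.732 on wild-type arrays. Levels of different probe sets are not comparable on an array, so this describes the markers and is no test of the tissue. The 3′ minus 5′ control signal of Actb, a measure of RNA integrity and labelling, averaged 0.608 ± 0.181 on R6/2 arrays and 0.373 ± 0.143 on wild-type arrays (SD, n = 7 each; exact permutation within cohorts, two-sided p = 0.0186). The same difference for Gapdh averaged 0.217 ± 0.207 on R6/2 arrays and 0.026 ± 0.067 on wild-type arrays (exact permutation p = 0.0143).

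Drd2 was lower in R6/2 than in wild-type striatum. In M.C its log2 signal was 8.746, 9.104, 9.225 and 9.211 on R6/2 arrays 1 to 4, against 9.958, 9.862, 9.585 and 9.784 on wild-type arrays 1 to 4. Every M.C R6/2 array was below every M.C wild-type array. In Mith the log2 signal was 8.899, 8.910 and 8.559 on R6/2 arrays 5 to 7, against 8.812, 9.459 and 9.135 on wild-type arrays 5 to 7. Here the genotypes overlapped, because wild-type array 5 was below R6/2 arrays 5 and 6. Over both cohorts Drd2 differed by -0.56 ± 0.11 on the log2 scale (SE; 95% interval -0.80 to -0.33), which is 67.7% of the wild-type signal, with limma's adjusted p = 0.0122. An exact permutation of genotype within cohorts gave a two-sided p of 0.00429. In bulk tissue, fewer cells of a type and less RNA in each cell cannot be told apart, and this holds for every change given here.

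Cnr1 was lower in R6/2 by nearly the same amount. Its M.C log2 signal was 7.458, 7.339, 7.540 and 7.703 on R6/2 arrays 1 to 4, against 8.280, 7.870, 8.386 and 8.217 on wild-type arrays 1 to 4. Its Mith log2 signal was 7.878, 7.939 and 7.694 on R6/2 arrays 5 to 7, against 7.948, 8.529 and 8.286 on wild-type arrays 5 to 7. All R6/2 arrays were below all wild-type arrays of their cohort, in Mith narrowly, with R6/2 array 6 and wild-type array 5 next to each other. Over both cohorts the difference was -0.57 ± 0.10 on the log2 scale (SE; 95% interval -0.77 to -0.36), or 67.5% of the wild-type signal, with limma's adjusted p = 0.00502. The exact permutation p was 0.00143, the smallest that the 1400 arrangements allow.

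Plxdc1 was lower in R6/2 over both cohorts, with a small spread in each group. Its M.C log2 signal was 7.004, 7.038, 6.972 and 7.173 on R6/2 arrays 1 to 4, against 7.295, 7.116, 7.394 and 7.311 on wild-type arrays 1 to 4. R6/2 array 4 was above wild-type array 2, and no other pair of M.C arrays crossed. Its Mith log2 signal was 7.022, 6.986 and 7.095 on R6/2 arrays 5 to 7, against 7.348, 7.423 and 7.399 on wild-type arrays 5 to 7. The Mith genotypes were clearly apart, with no R6/2 array near the wild-type range. Over both cohorts the difference was -0.29 ± 0.05 on the log2 scale (SE; 95% interval -0.40 to -0.17), or 82.1% of the wild-type signal, with limma's adjusted p = 0.0106. The exact permutation p was 0.00286.

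**Figure D1:**
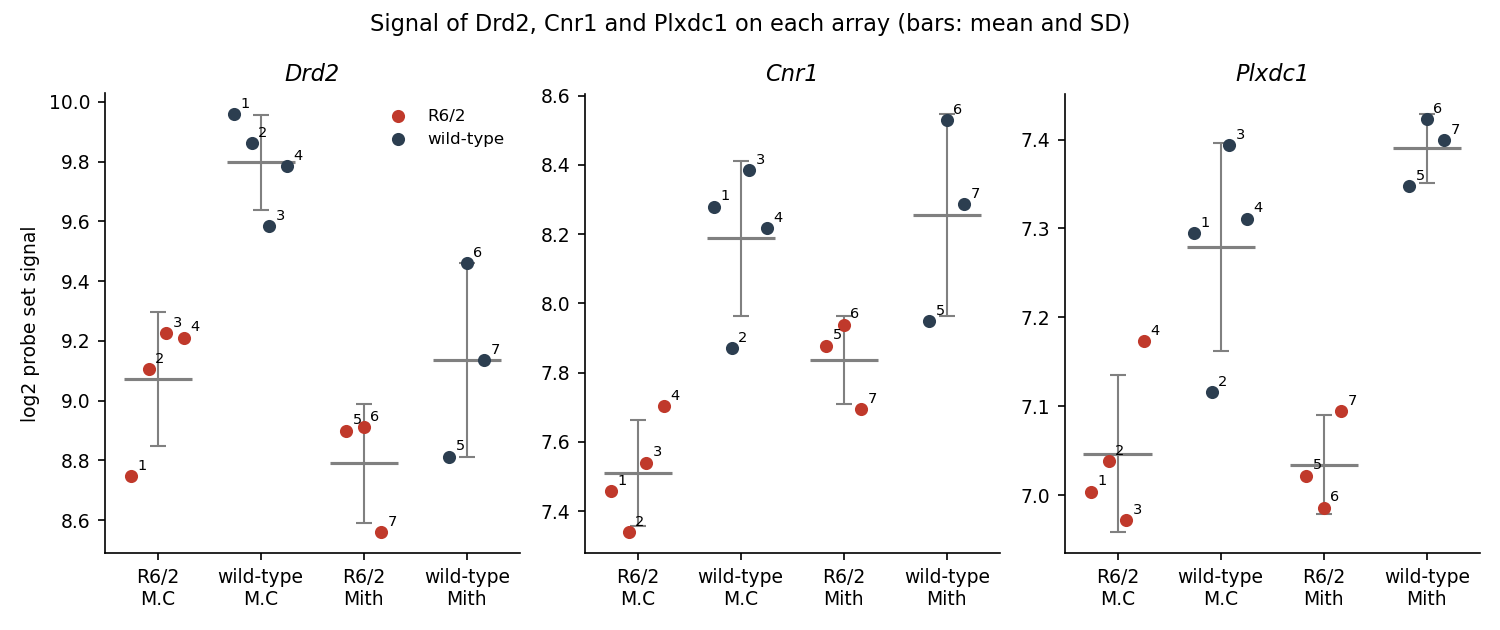
Log2 signal of Drd2, Cnr1 and Plxdc1 on every array (y axis), by genotype within M.C and Mith (x axis); points are arrays and bars give the mean and SD. All Cnr1 points of R6/2 lie below the wild-type points of their cohort, while Drd2 overlaps in Mith and Plxdc1 overlaps in M.C.

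All 3 genes were called lower over both cohorts, where 496 of 22626 probe sets, 2.19%, were called lower and 82 higher. By p-value Cnr1 was 96th, Plxdc1 142nd and Drd2 162nd of all probe sets. With 1 probe set per gene, 258 of 12393 genes, 2.08%, were called lower. Each gene kept its call when any 1 array was left out, with adjusted p at most 0.0322 for Drd2, 0.0176 for Cnr1 and 0.0343 for Plxdc1. After adjustment for the 3′ minus 5′ signal of Actb, none of the 3 was called: the log2 difference was -0.44 for Drd2 (limma's adjusted p = 0.228), -0.45 for Cnr1 (0.149) and -0.27 for Plxdc1 (0.143), and 56 probe sets were called in all.

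Within M.C, Drd2 and Cnr1 were called lower and Plxdc1 was not, where 2.31% of probe sets were called lower. Drd2 averaged 9.072 ± 0.224 in R6/2 and 9.797 ± 0.158 in wild-type (SD, n = 4 each), a difference of -0.73 ± 0.11 (SE; limma's adjusted p = 0.00857). Cnr1 averaged 7.510 ± 0.153 in R6/2 and 8.188 ± 0.223 in wild-type, a difference of -0.68 ± 0.11 (limma's adjusted p = 0.0106). With the Actb covariate both kept their calls in M.C, at -0.65 and -0.60 (limma's adjusted p = 0.0312 and 0.0382). Plxdc1 averaged 7.047 ± 0.088 in R6/2 and 7.279 ± 0.117 in wild-type, a difference of -0.23 ± 0.08 (limma's adjusted p = 0.158). The exact permutation p was 0.0286 for Drd2 and for Cnr1, the smallest possible with 4 against 4, and 0.0571 for Plxdc1.

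Within Mith no probe set was called by limma, 0%, while 2008 had an unadjusted p under 0.05. The Drd2 average was 8.789 ± 0.200 in R6/2 and 9.135 ± 0.324 in wild-type (SD, n = 3 each), a difference of -0.35 ± 0.16 (SE; limma's adjusted p = 0.568). The Cnr1 average was 7.837 ± 0.128 in R6/2 and 8.254 ± 0.292 in wild-type, a difference of -0.42 ± 0.14 (limma's adjusted p = 0.447). The Plxdc1 average was 7.034 ± 0.056 in R6/2 and 7.390 ± 0.038 in wild-type, a difference of -0.36 ± 0.08 (limma's adjusted p = 0.275). With 3 against 3 the exact permutation test cannot go below 0.1, which Cnr1 and Plxdc1 reached, and Drd2 had 0.3. With the Actb covariate the Mith difference was -0.17 for Drd2, -0.26 for Cnr1 and -0.35 for Plxdc1 (limma's adjusted p = 0.872, 0.744 and 0.656). The Mith differences of Drd2 and Cnr1 also depended on single wild-type arrays, with Drd2 at -0.51 without array 5 and -0.18 without array 6, and Cnr1 at -0.57 and -0.28 without the same arrays. Beside these values, 11 thalamic neuron genes had a median log2 difference of -0.50 in Mith and -0.08 in M.C. Their mean log2 signal was 7.716, 7.331 and 7.583 on Mith R6/2 arrays 5 to 7 and 8.135, 7.715 and 8.316 on Mith wild-type arrays 5 to 7, and their part in the receptor differences was not tested.

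The change in M.C minus the change in Mith was -0.38 ± 0.21 for Drd2 (SE; limma's adjusted p = 0.55), -0.26 ± 0.19 for Cnr1 (0.644) and 0.12 ± 0.11 for Plxdc1 (0.702). No probe set was called for this interaction, 0%, and 2213 had an unadjusted p under 0.05, so a difference between cohorts was not detected for any of the 3 genes. On simulated arrays this fit called 0% of log2 differences of 0.3 and 38% of those of 0.6. It could therefore miss differences of the size given here. Complete separation of the genotypes was not rare. In M.C 6.33% of probe sets had every R6/2 array below every wild-type array, as Drd2 and Cnr1 had, and in Mith 6.34% had, as Cnr1 and Plxdc1 had. In both cohorts at once it was 1.05%, and of the 3 genes Cnr1 was the one with this pattern.

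**Figure D2:**
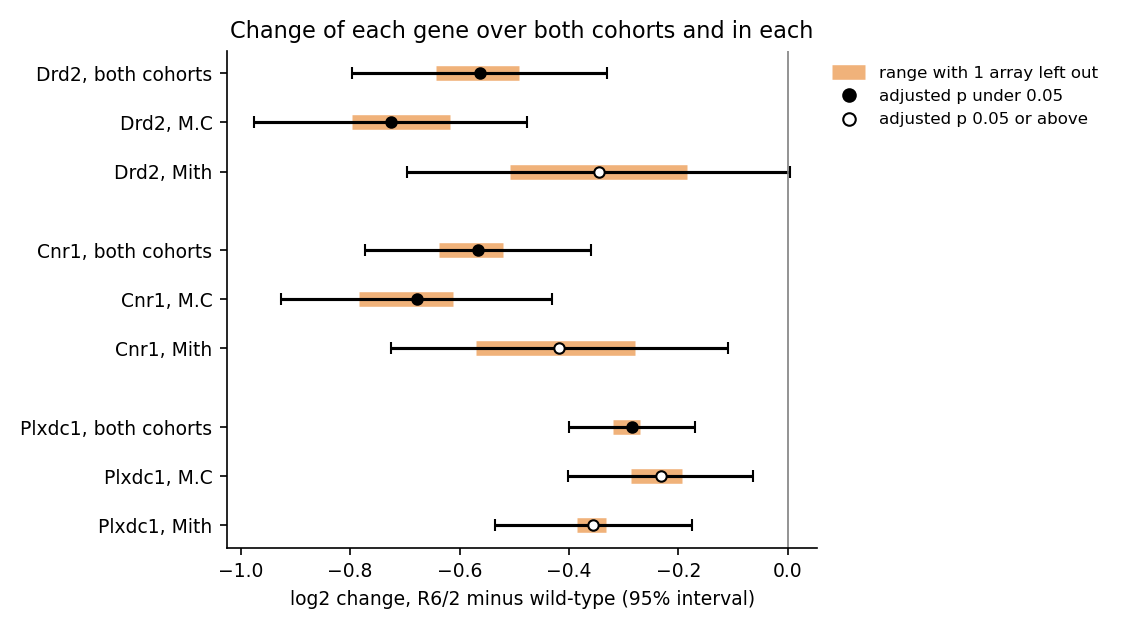
Log2 difference, R6/2 minus wild-type, of Drd2, Cnr1 and Plxdc1 over both cohorts, in M.C and in Mith, with 95% intervals from limma as lines and the range with 1 array left out as shaded bars; filled points were called. Over both cohorts all intervals lie below 0, and in Mith the Drd2 interval runs from -0.70 to 0.0042.

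The levels of the 4 genotype and cohort groups had a different order for each gene. Drd2 was highest in M.C wild-type, followed by Mith wild-type, M.C R6/2 and Mith R6/2. The wild-type groups of the 2 cohorts did not overlap for Drd2 and differed by 0.662, whereas Mith wild-type and M.C R6/2 differed by 0.063 and overlapped. How many of all probe sets separate the wild-type groups of the cohorts in this way was not counted, so this may not be particular to Drd2. Cnr1 was highest in Mith wild-type, followed by M.C wild-type, Mith R6/2 and M.C R6/2, and each group overlapped its neighbour in this order. Plxdc1 was highest in Mith wild-type, followed by M.C wild-type, M.C R6/2 and Mith R6/2, again with overlap between neighbours. Without a cohort term the Drd2 difference lost its call (limma's adjusted p = 0.168).

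The sizes of the 3 changes were compared within arrays over both cohorts, in 3 pairs. The probe sets differ in signal, with means over all arrays of 9.232 for Drd2, 7.933 for Cnr1 and 7.184 for Plxdc1. They were brighter than 91.4%, 71.3% and 52.4% of probe sets. Whether signal level has a part in the sizes of the changes was not tested. The Drd2 change minus the Cnr1 change was 0.0037 on the log2 scale (95% interval -0.24 to 0.25; exact permutation p = 0.976), and the interval leaves room for a difference either way. The Drd2 change minus the Plxdc1 change was -0.28 (95% interval -0.60 to 0.04; exact permutation p = 0.09, adjusted over the pairs 0.135). It was -0.49 in M.C and 0.0099 in Mith. The Cnr1 change minus the Plxdc1 change was -0.28 (95% interval -0.51 to -0.06; exact permutation p = 0.0229, adjusted over the pairs 0.0686), with -0.45 in M.C and -0.06 in Mith. Without wild-type array 5 both differences from Plxdc1 passed the threshold, at -0.36 for Drd2 (exact permutation p = 0.045 adjusted over the pairs) and -0.35 for Cnr1 (0.0171). Without R6/2 array 6 the Cnr1 difference passed it as well, at -0.33 (0.03).

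Within genotype and cohort, the arrays were then compared by how far each gene lay from its group mean. Cnr1 and Plxdc1 had Pearson's r = 0.63 over 14 arrays (exact permutation p = 0.0298, adjusted over the 3 pairs 0.0894) and Spearman's rank correlation of 0.521 (exact permutation p = 0.0784, adjusted 0.137). Wild-type arrays 2 and 5 lay below their group means in both genes, and without them r was 0.394, so the relation rests in part on those arrays. Drd2 and Cnr1 had r = 0.499 (exact permutation p = 0.158, adjusted 0.237) and a Spearman rank correlation of 0.552 (exact permutation p = 0.091, adjusted 0.137), with r = 0.335 without R6/2 array 1 and wild-type array 5. Drd2 and Plxdc1 had r = -0.051 (exact permutation p = 0.852, adjusted 0.852) and a Spearman rank correlation of 0.011 (exact permutation p = 0.978, adjusted 0.978), with r = -0.307 without the same 2 arrays. None of the 3 relations passed the adjustment.

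**Figure D3:**
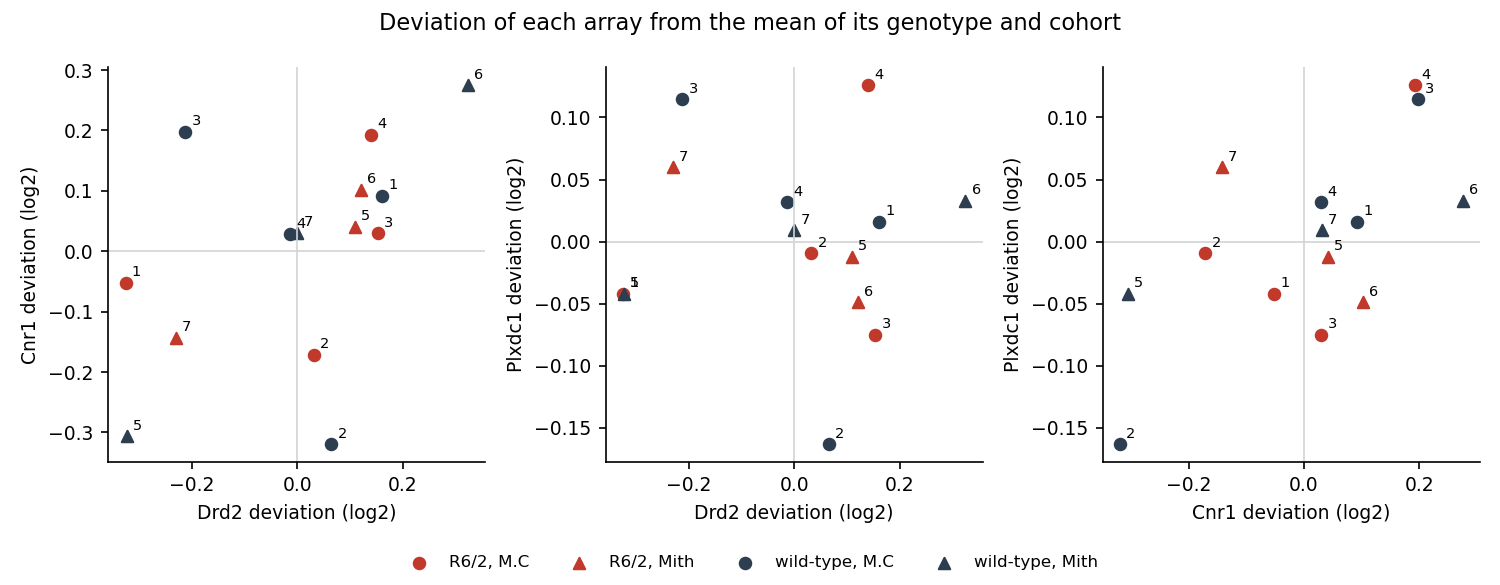
Deviation of each array from the mean of its genotype and cohort, in log2, for each pair of genes; numbers are replicates, colours genotypes and shapes cohorts. Cnr1 and Plxdc1 have r = 0.63, while Drd2 and Plxdc1 have r = -0.051.

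Other genes with the most similar pattern were ranked by Pearson's r over the 14 arrays after the cohort means were removed. This r includes the genotype difference and shares arrays and centring, so it is a description, and the value within genotype and cohort is given beside it. The within-group value comes from the same arrays as the choice of genes, so it is not independent of that choice and is a description too. Closest to Drd2 were Acy1, an aminoacylase (r = 0.948, within groups 0.849), Pde1b, a calcium-dependent phosphodiesterase (0.947, within groups 0.808), and Rasd2, the striatal small GTPase Rhes (0.944, within groups 0.922). Npas2, a circadian transcription factor (0.940, within groups 0.835), and Ngef (0.939, within groups 0.809), followed. Closest to Cnr1 were Smpd3, a neutral sphingomyelinase (r = 0.962, within groups 0.905), Pde1b (0.957, within groups 0.858) and Grik2, a kainate receptor subunit (0.955, within groups 0.827). Kctd1 (0.950, within groups 0.835) and Rgs4, which speeds the inactivation of inhibitory G proteins (0.946, within groups 0.777), followed.

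Closest to Plxdc1 was a different set, with lower correlations. Fnbp1, a membrane-bending adaptor (r = 0.913, within groups 0.595), Kcnip1, a potassium channel partner (0.905, within groups 0.678), and Fgfr2, a growth factor receptor (0.882, within groups 0.640), came first. Mag, a myelin glycoprotein (0.859, within groups 0.583), and Slc6a9, a glycine transporter (0.858, within groups 0.524), followed. Between the 3 genes themselves r was 0.857 for Drd2 with Cnr1, 0.841 for Cnr1 with Plxdc1 and 0.636 for Drd2 with Plxdc1. Because this r includes the genotype difference, genes chosen by it tend to differ between genotypes by the choice itself, and their log2 differences are given as a description. Near Drd2 they were -0.23 for Acy1, -0.69 for Pde1b, -0.74 for Rasd2, -0.31 for Npas2 and -0.43 for Ngef. Near Cnr1 they were -0.42 for Smpd3, -0.33 for Grik2, -0.22 for Kctd1 and -0.78 for Rgs4. Near Plxdc1 they were -0.40 for Fnbp1, -0.23 for Kcnip1, -0.17 for Fgfr2, -0.30 for Mag and -0.21 for Slc6a9. Of all these, Fgfr2 and Slc6a9 were not called (limma's adjusted p = 0.0996 and 0.067). With 1 array left out, calls were lost in 10 of 14 fits for Npas2, Kctd1 and Mag, 9 for Kcnip1, 6 for Ngef and 5 for Smpd3. The remaining genes kept theirs. Other probe sets of the genes near each receptor differed in size. Npas2 had another at -0.64, Kctd1 at -0.57, Smpd3 at -0.25, Rasd2 at -0.82 and Fnbp1 at -0.05. The other 3 of Kcnip1 gave 0.04, -0.11 and 0.15, and those of Rgs4 gave -0.83 and -1.23.

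Of the genes that act with Drd2, 26 dopamine receptor and signal relay genes were measured. In R6/2, 4 were called lower and none was called higher, beside 2.08% of all 12393 genes called lower. The median log2 difference was -0.03, against 0.01 over all 12393 genes. The called genes act downstream of the receptor. Rgs4, a brake on inhibitory G proteins, was lower by -0.78 ± 0.11 (SE; limma's adjusted p = 0.00143). Rgs9, the striatal brake on D2 signalling, was lower by -0.61 ± 0.12 (0.0106), although its other probe set gave -0.05. Ppp1r1b, the dopamine-regulated phosphatase inhibitor DARPP-32, was lower by -0.80 ± 0.13 (0.00437), and Gsk3b, a kinase of the arrestin branch named here after its value was seen, was lower by -0.50 ± 0.12 (0.0412). When arrays were left out singly, Gsk3b missed the threshold in 8 of 14 fits (limma's adjusted p from 0.0207 to 0.0947). The related receptors Drd3 at -0.02 and Drd4 at 0.05 did not pass (adjusted p = 0.941 and 0.834), nor did Gnb5, the G protein subunit bound to Rgs9, at -0.37 (0.0715), although it was -0.62 and called in M.C (limma's adjusted p = 0.0114). The inhibitory G protein subunits Gnai1, Gnai2 and Gnao1 had -0.01, -0.03 and -0.22 (adjusted p = 0.987, 0.863 and 0.239).

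Of 13 measured genes of the endocannabinoid system apart from Cnr1, none was called, with a median of -0.04. Mgll, which degrades the messenger 2-AG, had -0.15 ± 0.09 (SE; limma's adjusted p = 0.472), and Faah, which degrades anandamide, had 0.04 ± 0.07 (0.874). Daglb, which makes 2-AG, had -0.04 (0.823), Abhd6, a further hydrolase, had -0.19 (0.408), and the CB2 receptor gene Cnr2 had 0.01 (0.947). Of 5 measured relatives, ligands and partners of Plxdc1 none was called, and their median was 0.03. Its paralog Plxdc2 had -0.10 ± 0.09 (limma's adjusted p = 0.633), and Serpinf1, the ligand, had 0.06 ± 0.07 (0.764). Whether these differences are smaller than those of the receptors was not tested. The probe sets of Cnr2, Plxdc2 and the dopamine receptor Drd3 were left out by the filter on dim probe sets, which limits what their differences show.

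**Figure D4:**
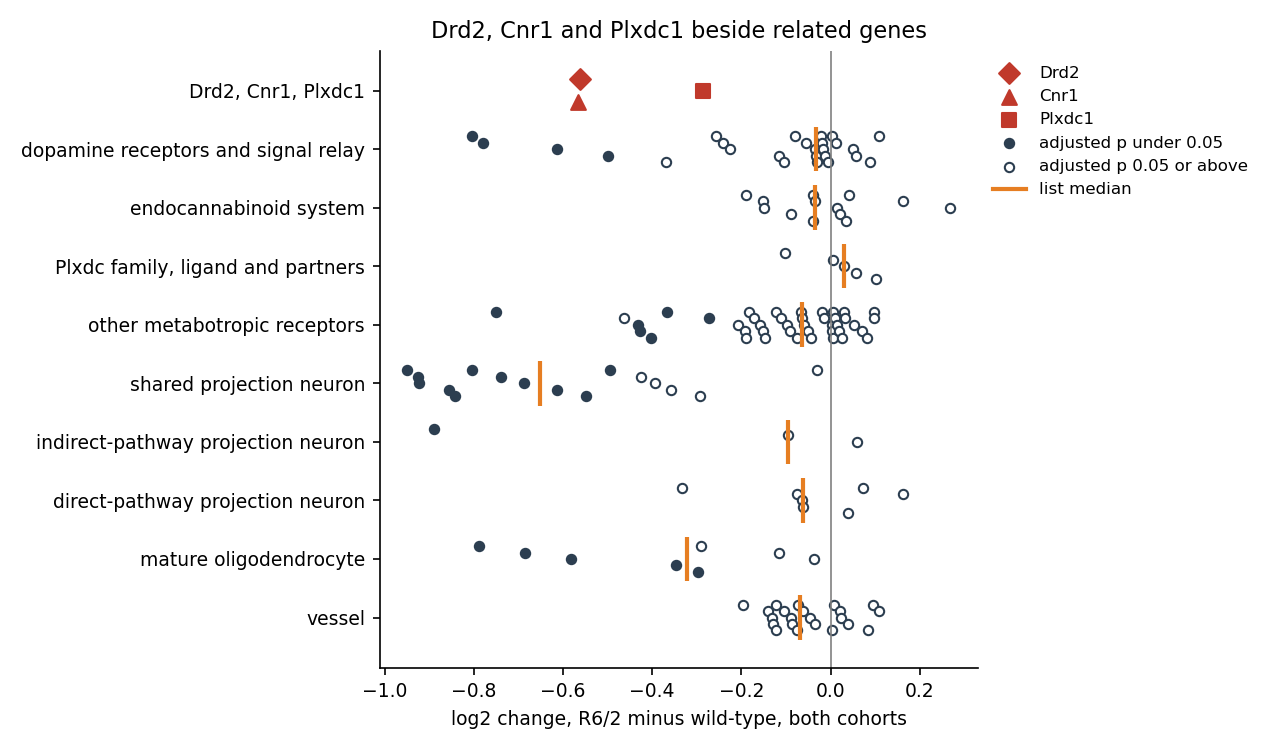
Log2 difference, R6/2 minus wild-type over both cohorts, of each measured gene in the related lists, 1 row per list; filled points were called and vertical marks are list medians. Drd2 lies at -0.56, Cnr1 at -0.57 and Plxdc1 at -0.29. The shared projection neuron list has 11 of 16 genes called lower, beside 2.08% of all genes.

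Of 42 other measured metabotropic receptor genes, 6 were called lower and none higher, with a median of -0.07, beside 2.08% of all genes called lower. The orphan receptors Gprc5b and Gpr83 had -0.75 ± 0.11 and -0.40 ± 0.07 (SE; limma's adjusted p = 0.00243 and 0.00365), and the histamine receptor Hrh3 had -0.37 ± 0.07 (0.00791). The other Gprc5b probe set gave -0.39. Among the markers of indirect-pathway neurons, 3 genes besides Drd2 and Plxdc1 were measured. Penk was called, at -0.89 ± 0.11 (limma's adjusted p = 0.000887), while Upb1 had -0.09 and Adk 0.06 and neither was called (0.458 and 0.823). Of 7 direct-pathway markers none was called over both cohorts, with a median of -0.06, and Tac1, the substance P precursor, had 0.07 ± 0.10 (0.787). Pdyn, the dynorphin precursor, had -0.33 ± 0.09 (0.0537). In M.C alone Pdyn was called lower, at -0.55 (limma's adjusted p = 0.00871), and in Mith it had -0.04 (0.953). The difference between the marker sets of the 2 pathways was not tested. Drd1, Adora2a, Cnrip1 and Dagla were not measured by a probe set of their own symbol alone and are not analysed here.

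Among the 16 genes shared by projection neurons of both pathways, 11 were called lower and none higher, beside 2.08% of all genes called lower. Their median log2 difference was -0.65, with -0.79 in M.C and -0.35 in Mith. Arpp19 had -0.92 ± 0.14 and Arpp21, a calmodulin regulator rich in the striatum, had -0.84 ± 0.13 (SE; limma's adjusted p = 0.00227 and 0.00289). Other probe sets of these genes gave -0.67 and -0.12 for Arpp19 and 0.02 and -1.03 for Arpp21. By the mean of this list relative to its cohort, the R6/2 arrays lay between -0.598 and -0.023. Wild-type array 5, the wild-type array with the lowest Drd2 in Mith and the lowest Cnr1 in Mith, lay at -0.148, among the R6/2 arrays, whereas its fellow wild-type arrays had 0.282 to 0.501. The list's median stands beside -0.56 for Drd2, -0.57 for Cnr1 and -0.29 for Plxdc1, and the difference was not tested.

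Markers of other cells moved in part with genotype, and their part in the receptor differences was not tested. Each count of these markers called lower stands beside 2.08% of all genes, and some lists are short. Of 8 mature oligodendrocyte genes, 5 were called lower, with a median of -0.32. In M.C the list's mean log2 signal ran from 8.967 to 9.232 on R6/2 arrays and from 9.238 to 9.737 on wild-type arrays. In Mith it ran from 9.595 to 9.974 on R6/2 arrays and from 10.127 to 10.237 on wild-type arrays. Ugt8a, Cldn11 and Mobp led the called oligodendrocyte genes, at -0.79 ± 0.11, -0.68 ± 0.12 and -0.58 ± 0.11 (SE; limma's adjusted p = 0.00148, 0.00492 and 0.0105). Plxdc1 is known from vessels, and of 22 vessel genes none was called, with a median of -0.07 and mean log2 signals of 7.142 to 7.347 on R6/2 arrays and 7.209 to 7.367 on wild-type arrays. Drd2 is also made by cholinergic interneurons, where 1 of 4 genes was called lower, the vesicular acetylcholine transporter Slc18a3 at -0.35 ± 0.07 (0.0118). Slc18a3 kept its call in all 14 fits with 1 array left out and lost it in 3 of 7 alternatives. The filter on dim probe sets left its probe set out. Cnr1 is also made by some GABA interneurons, where 3 of 11 genes were called lower, namely Sst, Nos1 and Kcnc1 at -0.31, -0.32 and -0.39 (limma's adjusted p = 0.0295, 0.0475 and 0.0297). With 1 array left out these calls were lost in 7 of 14 fits for Sst, 10 for Nos1 and 6 for Kcnc1, and the other Nos1 probe set gave -0.13 (0.521). Over both cohorts no gene was called among 12 of astrocytes (median -0.21), 11 of microglia (-0.06), 9 of cortical neurons (-0.01), 11 of thalamic neurons (-0.26) and 8 of midbrain dopamine neurons (-0.0018). The astrocyte genes Gja1 and Slc1a3 were called lower in M.C, at -0.72 and -0.56 (limma's adjusted p = 0.00868 and 0.0228). Both had -0.17 in Mith (0.878 and 0.792). The astrocyte list's mean log2 signal ran from 8.274 to 8.474 on M.C R6/2 arrays and from 8.617 to 8.725 on M.C wild-type arrays. In Mith it ran from 8.495 to 8.722 and from 8.634 to 8.890. The thalamic list's mean log2 signal ran from 6.922 to 7.716 on R6/2 arrays and from 7.089 to 8.316 on wild-type arrays.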

How the data were processed

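Total RNA of 14 samples was measured on an Affymetrix mouse array. The authors deposited a table of log2 signals for 22690 probe sets, of which 64 are controls. The log2 unit was read from the values, which run from 2.96 to 14.5; the software and normalization that made them are not given in the sources used here. Array medians spanned 0.108, so each array was centred on the common median of the 22626 other probe sets. Detection calls and background were not used here, and the number of arrays limits the precision.

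Symbols came from the platform annotation and were updated through the gene ID: 20380 probe sets have 1 symbol, 691 several and 1555 none; 20351 symbols matched and 29 were kept. Genes with several probe sets are represented by the one of highest mean, with suffixes _x and _s passed over where the gene has another. Differences were fitted with limma 3.58.1 in R 4.3.3 with cohort as a term, within each cohort on its own arrays, and as an interaction, and adjusted over all probe sets. Values of single genes were also tested by exact permutation of genotype within cohorts. The script was tested on simulated data.

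The 3 genes, the 16 lists and the tests were chosen with earlier results of these data known. Beside the 3 genes, the text names at most 3 called genes of smallest p per list, preset partners, and the 5 genes most correlated with each receptor. The other genes named, such as Gsk3b, Gnb5, Pdyn, Drd3, Drd4, the Gnai subunits, Gnao1, Daglb, Abhd6, Cnr2, Upb1, Adk, Gja1 and Slc1a3, were chosen after their values were seen. Of 262 listed genes, 204 have a probe set. Alternatives were values as deposited, quantile normalization, array weights, trended robust variances, a filter on dim probe sets, an Actb covariate, no cohort term, a stricter threshold and leaving out arrays.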

Additional observations from a re-analysis of the deposited data

Results flagged for a closer look

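Plxdc1 on wild-type replicate 2 lay at -0.047 relative to its cohort mean, far from the other 6 wild-type arrays for a group of this size. It was the 1 such array in 12 tests of this kind, where chance marks about 1 in 20. Its gap to the next wild-type array was 0.645 of the range, above the critical 0.568 for 7 arrays. Among the 4 M.C wild-type arrays alone this was again 0.645, under the critical 0.829, so the array was not marked there. The same array was also the lowest wild-type M.C array for Cnr1. It was the lowest of these for several of the 16 list means too, relative to the cohort: 0.365 for the shared projection neuron list, 0.119 for the indirect-pathway list, 0.082 for the dopamine relay list, 0.005 for the other metabotropic receptors, 0.021 for GABA interneurons, 0.024 for microglia and -0.038 for mature oligodendrocytes. In the remaining lists it was not the lowest. For the direct-pathway list (0.09) and the cortical neuron list (0.062) it was the highest of these arrays. Some lists share genes, so their means are not separate observations. Plxdc1 stayed called over both cohorts with any 1 array left out.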

How the results depend on the processing

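No alternative reversed a difference of the 3 genes over both cohorts or in either cohort. Probe sets called over both cohorts numbered 578, against 1333 with array weights, 56 with the Actb covariate, 131 at an adjusted p under 0.01 and 100 without the cohort term. With the Actb covariate Drd2 had -0.44, Cnr1 -0.45 and Plxdc1 -0.27, none called. At the 0.01 threshold Drd2 (-0.56) and Plxdc1 (-0.29) lost their calls, and without the cohort term Drd2 did (-0.56). In M.C 558 were called, against 371 with quantile normalization, 1146 with array weights, 1228 with the Actb covariate and 156 at the stricter threshold, where Cnr1 (-0.68) lost its call; with array weights Plxdc1 (-0.28, adjusted p = 0.0442) gained one. In Mith 0 were called by limma, with 5 when the spread came from all 14 arrays, and for the interaction 0, with 2 under array weights.

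With 1 array left out, calls ranged from 280 (without wild-type 3) to 879 (without wild-type 5) over both cohorts, from 242 (without R6/2 1) to 962 (without R6/2 4) in M.C, from 0 to 13 (without wild-type 5) in Mith and from 0 to 7 (without wild-type 6) for the interaction. Over both cohorts the count also moved by over 1.5 times without R6/2 1 (295), R6/2 3 (384), R6/2 7 (341), wild-type 1 (370), wild-type 4 (295) and wild-type 7 (310), and in M.C without wild-type 1 (295), 2 (339), 3 (287) and 4 (272). In Mith it was 6 without wild-type 6, and for the interaction 2 without R6/2 4. Drd2 minus Plxdc1 ranged from -0.3574 to -0.2083 and Cnr1 minus Plxdc1 from -0.3516 to -0.238. The cause was not tested. Of 28 other named genes called over both cohorts, 21 lost their call with the Actb covariate, 19 without the cohort term, 15 at the 0.01 threshold and 0 with array weights, and none reversed. A mean over probe sets was not run, since each gene has 1. No paired analysis was possible because the labels give no replicate numbers that the genotypes share.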
